A study of Mus musculus with 16 samples.

Results

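The fatty acid elongases and desaturases are the enzymes that lengthen acyl chains and place double bonds in them. The set was taken by exact gene name and holds Elovl1, Elovl2, Elovl3, Elovl5, Elovl6, Fads1, Fads2, Fads3, Scd1 and Scd2. All 10 were found among the 25803 genes in the deposited count tables, and all 10 passed the filter on low counts (14488 genes passed in all). The study sequenced bulk liver RNA of male mice that had eaten a high-fat diet for 12 weeks, in 16 libraries. Control mice and mice with a liver-specific loss of Cpt1a (LKO) were necropsied either fasted for 16 h or refed for 6 h after such a fast, which gave 4 groups of 4 libraries. Cpt1a encodes the carnitine palmitoyltransferase that admits long-chain fatty acids to mitochondria for oxidation. The labels name neither the strain or age of the mice, nor how the knockout was made, nor whether controls carried any transgene. They do not say in words that each sample is a separate animal, so p-values measure the spread between these samples.

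Elongases of the ELOVL family run the condensation that starts each cycle of chain lengthening in the endoplasmic reticulum. The polyunsaturated branch takes the essential fatty acids of the diet to arachidonic and docosahexaenoic acid. Fads2 and Fads1 add double bonds near the carboxyl end, and Elovl5 and Elovl2 lengthen the chain. The saturated and monounsaturated branch starts from palmitate made in the cell. Elovl6 extends it to stearate, Scd1 and Scd2 place a double bond to give oleate and palmitoleate, and Elovl1 and Elovl3 make very long saturated and monounsaturated chains. Fads3 lies beside Fads1 and Fads2, acts on other substrates, sphingoid bases among them, and was placed in neither branch. In liver both branches are known targets of SREBP1, PPARA and the liver X receptors.

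Library totals ran from 14721601 to 24618230 counts. Values are given as CPM, a gene's count divided by the library total in M (mega) counts after TMM scaling, and tests are edgeR's quasi-likelihood tests with Benjamini-Hochberg adjustment over all genes tested. A gene is called at an adjusted p under 0.05. Cpt1a stood between 319 and 619.7 CPM in the 8 control livers and between 39.9 and 126 CPM in the 8 LKO livers. The label of liver was checked on 8 hepatocyte markers, whose summed level lay between 60234 and 89363 CPM in every library. The sum ran from 71113.1 to 78920.5 CPM in fasted controls and, lower without overlap, from 60234 to 68695.5 CPM in fasted LKO livers. After refeeding it ran from 69132 to 89363 CPM in controls and from 61543 to 75475 CPM in LKO livers. Of these 8 markers, 1 was called lower in fasted LKO liver and 0 were called in the refed comparison. Among 8 adipocyte markers, Adipoq, Lep, Plin1 and Retn reached at most 0.447, 0.199, 0.497 and 0.1997 CPM, while Cfd, Fabp4, Cidec and Car3 reached 58.1, 54.1, 354 and 5351 CPM. A pair of libraries stood apart. The fasted LKO library S44 held 29.0 CPM of Krt19 and 45.5 CPM of Acta2, against at most 2.22 and 19.8 CPM in the others. The refed control library S49 held 406 CPM of Fasn and 1104 CPM of Thrsp, against at most 218 and 431 CPM in the other refed controls. Each count of members is therefore also given without both.

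Counts behind the members were deep for most. Scd1 ranged from 3605 to 71704 counts per library and Fads2 from 8491 to 41178, while Scd2 had 46 to 140 and Fads3 92 to 592. On the mouse build mm39, the genome named in the submitters' processing notes, 6 of the members lie on chromosome 19. Fads3, Fads2 and Fads1 fall in one stretch of 155 kb (chr19:10018933-10174241), and Scd2 and Scd1 in another of 114 kb (chr19:44282113-44396318), with Elovl3 further along at chr19:46120336-46124133. Elovl5 lies at chr9:77824646-77891801, Elovl2 at chr13:41335857-41373881, Elovl6 at chr3:129326004-129432144 and Elovl1 at chr4:118285290-118290150. Scd1 and Scd2 are close paralogs, and how reads shared by paralogs were counted is not given in the sources used here, so the low Scd2 counts are uncertain.

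Promoters were read from RefSeq for Elovl5, Elovl2 and Fads3, the members called higher in LKO liver in both feeding states. That of Elovl6, which rose on refeeding in both genotypes, was read as well. Promoters of 6 of the 10 members were matched, and 250 bases upstream of the start are shown, on build GRCm38.p6, whose coordinates differ from those of the count tables. Capitals mark every match, on either strand, to any of the motifs searched. These were the CCAAT box, the E-box CACGTG, the GC box GGGCGG, the cyclic AMP response element TGACGTCA, the sterol response element TCACNCCAC, the nuclear receptor core AGGTCA and, overlapping it, the PPAR element as a direct repeat of that core with 1 base between. The regions are chr9:77917115-77917364 on the plus strand for Elovl5, chr13:41220404-41220653 on the minus strand for the upstream one of the pair of Elovl2 entries, chr19:10041298-10041547 on the plus strand for Fads3 and chr3:129532136-129532385 on the plus strand for Elovl6.
Elovl5: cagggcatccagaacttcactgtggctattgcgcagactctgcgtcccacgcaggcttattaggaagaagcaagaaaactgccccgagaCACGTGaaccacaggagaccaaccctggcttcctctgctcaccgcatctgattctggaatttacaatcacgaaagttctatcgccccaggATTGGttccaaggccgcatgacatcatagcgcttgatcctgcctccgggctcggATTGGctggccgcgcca
Elovl2: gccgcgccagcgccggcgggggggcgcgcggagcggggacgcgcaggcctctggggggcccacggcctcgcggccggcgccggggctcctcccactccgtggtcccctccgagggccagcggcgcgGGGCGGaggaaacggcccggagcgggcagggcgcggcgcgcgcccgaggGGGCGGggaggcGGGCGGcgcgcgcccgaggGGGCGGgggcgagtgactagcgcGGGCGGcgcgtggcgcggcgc
Fads3: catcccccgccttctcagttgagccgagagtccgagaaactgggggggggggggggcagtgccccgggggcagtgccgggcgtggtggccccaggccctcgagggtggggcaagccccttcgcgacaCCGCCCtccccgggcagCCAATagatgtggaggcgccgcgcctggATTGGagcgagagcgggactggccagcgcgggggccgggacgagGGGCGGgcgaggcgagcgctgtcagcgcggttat
Elovl6: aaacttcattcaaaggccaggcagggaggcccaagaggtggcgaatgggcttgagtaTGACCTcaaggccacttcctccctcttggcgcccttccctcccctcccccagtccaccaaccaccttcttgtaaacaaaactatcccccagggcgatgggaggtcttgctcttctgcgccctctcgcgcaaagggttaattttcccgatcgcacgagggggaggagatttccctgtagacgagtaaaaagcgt

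The Elovl5 window held CCAAT in inverted form at -71 and -17 from the start and the E-box CACGTG at -161. Of 32851 mouse promoters of the same length, 33.8% held CCAAT and 6.02% held CACGTG. The Elovl2 window was 87.2% G and C and held the GC box GGGCGG 5 times. The other Elovl2 entry, not shown, was 79.6% G and C and held none of the motifs searched. Fads3 held CCAAT at -106 and -78 and GGGCGG at -123 and -34, and 32.7% of all promoters held GGGCGG. The Elovl6 window held 1 match, AGGTCA at -193, which 14.0% of promoters held. The sterol response element and the direct repeat, searched in 1 form each, were in none of these windows and in 1.05% and 0.0335% of all promoters. The cyclic AMP response element, found in 1.55% of promoters, was in none of them either. A match is a run of letters and not a measured binding site.

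Levels of different genes are compared here per length, as CPM per kb of the gene length in the deposited tables. In fasted control liver Scd1 came first at 643 ± 225 CPM per kb (SD, n = 4 here and in the levels that follow), clear of Fads2 at 223 ± 43.2 CPM per kb. Elovl5 (84.2 ± 13.5 CPM per kb), Elovl3 (73.5 ± 13.5), Fads1 (65.9 ± 15.8) and Elovl2 (58.5 ± 10.99) came next, each overlapping its neighbour in the order. Elovl1 followed at 15.5 ± 1.37 CPM per kb, and Elovl6 (2.53 ± 0.219), Fads3 (2.07 ± 0.379) and Scd2 (0.638 ± 0.0775) were lowest. The order at the top was another in fasted LKO liver. Fads2 (332 ± 85.4 CPM per kb), Elovl5 (288 ± 31.5), Scd1 (222 ± 141) and Elovl2 (197 ± 73.0) overlapped one another in turn. The Scd1 range, from 44.9 to 390 CPM per kb, also took in those of Elovl3 and Fads1, while Elovl2 and Elovl3 did not overlap. In refed control liver Scd1 (277 ± 183 CPM per kb) overlapped Fads2 (264 ± 43.5). In refed LKO liver Fads2 led at 521 ± 101 CPM per kb with no overlap with Elovl2 (200.4 ± 31.2), while Elovl5 (166 ± 8.23) and Scd1 (161 ± 123) came after. Elovl4 and the further stearoyl desaturases Scd3 and Scd4 were at or near 0 in every group, with no library above 0.186 CPM.

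**Figure D1:**
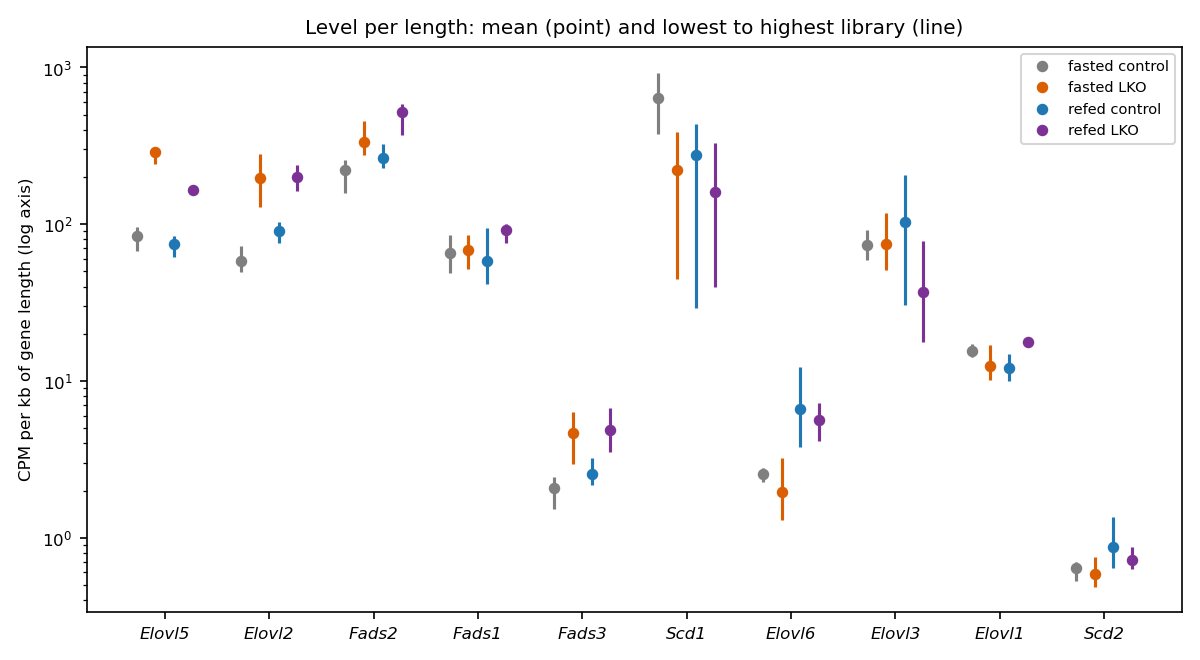
Level of each member per length (CPM per kb of gene length, log axis) in the 4 groups, with the mean of 4 libraries as a point and the lowest to highest library as a line. Scd1 leads in fasted control liver at 643 CPM per kb and has long lines in the other 3 groups, while Fads2 leads in refed LKO liver at 521 CPM per kb.

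In the fasted state the comparison of LKO with control livers asks how loss of Cpt1a bears on the chain-modifying enzymes. Elovl5 and Elovl2, the elongases of the polyunsaturated branch, were each 3.4-fold higher in LKO liver, and Fads3 was 2.24-fold higher. The desaturases Fads1 and Fads2 and all 5 members of the saturated and monounsaturated branch were not called. In all, 3 of 10 members were called, each of them higher, where 12.2% of all genes were called in either direction and 5.75% were called higher. Without S44 and S49 the count was again 3, with Elovl2, Elovl5 and Fads3 called, where 1149 of all genes were called.

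Elovl5 adds carbon pairs to the shorter polyunsaturated chains. Fasted controls S40 to S43 had Elovl5 at 236, 331, 338 and 280.1 CPM, and fasted LKO livers S44 to S47 had it at 1037, 850.1, 1080.2 and 1086 CPM. Every LKO liver exceeded every control, and the 4 LKO values lay close together. The log2 difference was 1.77 (SE 0.13, edgeR adjusted p = 1.9e-06), and it ran from 1.68 to 1.84 under the alternatives tried. Elovl2 takes the longer chains onward to the precursors of docosahexaenoic acid. Its fasted control libraries held 199, 289.6, 242 and 197 CPM and the LKO libraries 931, 509, 1115 and 572 CPM. The groups did not overlap, and the LKO livers split into a higher pair, S44 and S46, and a lower pair, S45 and S47. On the log2 scale the difference was 1.75 (SE 0.22, edgeR adjusted p = 2.4e-04).

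Fads3 was the least abundant member to pass. Its levels were 9.19, 8.11, 5.81 and 8.28 CPM in fasted controls and 18.9, 16.2, 23.9 and 11.3 CPM in fasted LKO livers, without overlap. This came to a log2 difference of 1.16 (SE 0.23, edgeR adjusted p = 0.0045). Fads2, the desaturase that opens the polyunsaturated route, held 843, 788, 781 and 524.5 CPM in fasted controls and 1066, 908, 1502 and 906 CPM in fasted LKO livers. Each LKO liver again exceeded each control, so that the groups did not overlap for 4 of 10 members, against 16.9% of all genes. The log2 difference of Fads2 was 0.58 (SE 0.19) and missed the threshold (edgeR adjusted p = 0.060). It passed with DESeq2 (adjusted p = 0.029), under a low-count limit of 5 CPM on average (0.047), and without S45 (0.045) or S47 (0.045). Fads1, the desaturase nearer the end of the route and the neighbour of Fads2, held 282, 410.0, 343 and 234 CPM in fasted controls and 248, 409, 316 and 340.1 CPM in fasted LKO livers. These ranges nearly coincide, and the log2 difference was 0.05 (SE 0.23, edgeR adjusted p = 0.918).

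**Figure D2:**
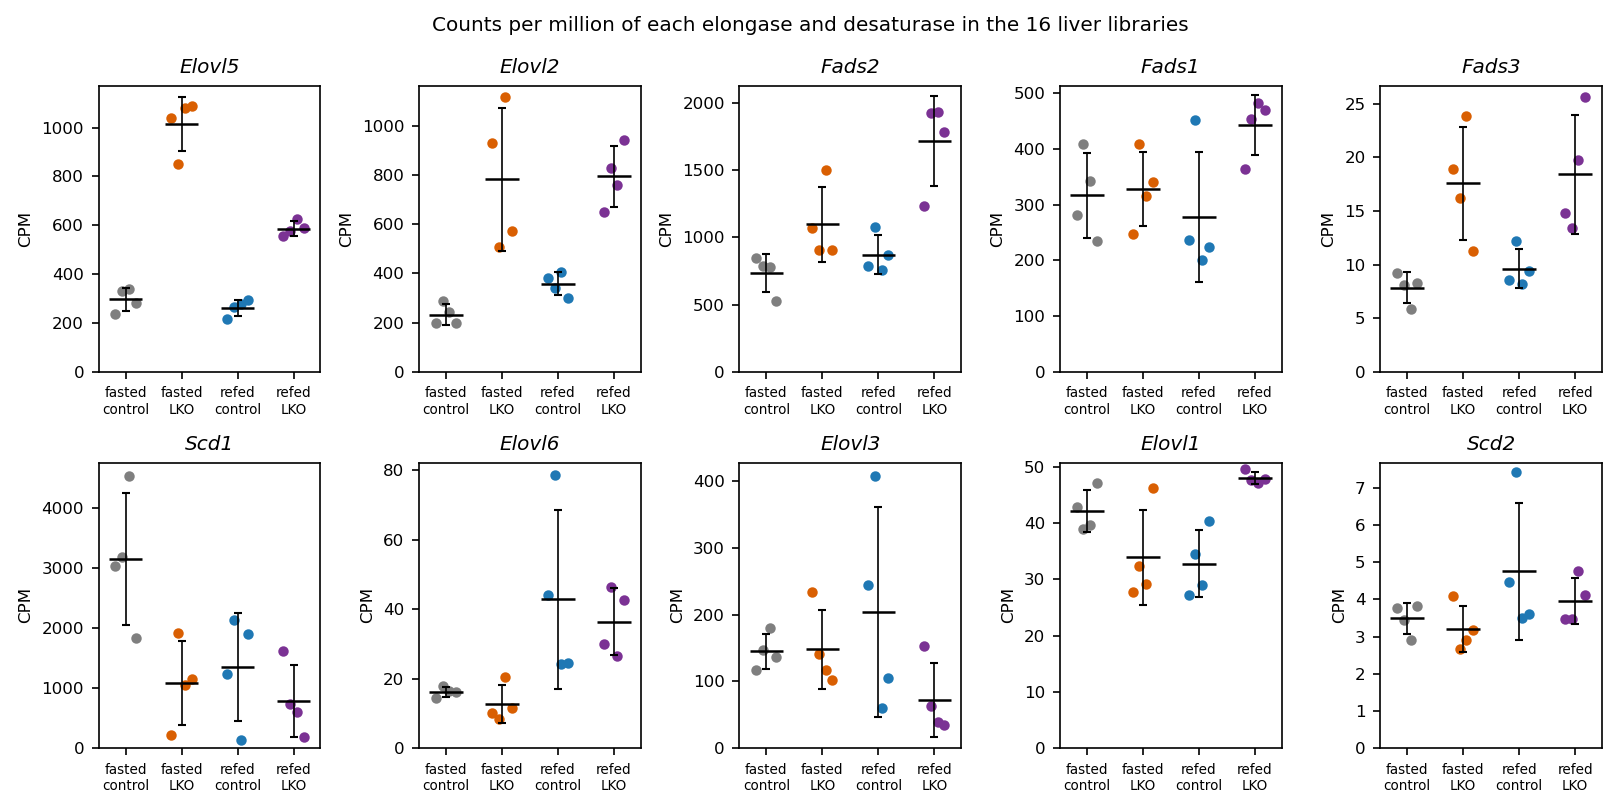
CPM of each member in every library (points) with the group mean (bar) and SD (error bars, n = 4), linear axes starting at 0. Elovl5 and Elovl2 are higher in every LKO liver than in any control of the same feeding state, while Scd1 spreads from 143 to 2141 CPM within the refed controls.

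Scd1, the main stearoyl-CoA desaturase of liver, was the most abundant member in fasted controls. It held 3029, 3184, 4531 and 1842 CPM there and 219.8, 1909.6, 1049 and 1159 CPM in fasted LKO livers. The groups overlapped through S43 and S45 alone. The log2 difference was -1.54 (SE 0.71) and was not called by edgeR (adjusted p = 0.176) or by DESeq2 (0.184). In the authors' deposited table the same contrast has a log2 fold change of -1.54 with an adjusted p of 0.033. Without S44, the lowest of the LKO libraries, the difference was -1.20 (edgeR adjusted p = 0.337). In the saturated and monounsaturated branch as a whole, 0 of 5 members were called by edgeR and 0 by DESeq2. Scd1 and Elovl1 had an unadjusted edgeR p under 0.05, and the share of all genes at that threshold was not computed. Elovl1 held 42.8, 38.9, 39.6 and 47.1 CPM in fasted controls and 27.8, 32.4, 29.3 and 46.2 CPM in LKO livers. A single LKO library, S47, lay within the control range. Its log2 difference was -0.31 (SE 0.14, edgeR adjusted p = 0.173), and without S47 it was -0.50 (0.012). The differences of Elovl6 (-0.36, SE 0.35), Elovl3 (0.03, SE 0.51) and Scd2 (-0.12, SE 0.23) were within about 1 standard error of 0.

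Genes on the marker lists of other cells moved between the fasted groups too. Of 8 adipocyte markers, 4 were tested, of which Cfd and Car3 were lower and Cidec was higher in LKO liver. The summed adipocyte list ran from 2089 to 3511 CPM in fasted controls and from 555 to 1404 CPM in fasted LKO livers. By group means Car3 was the largest part of that sum, at 2551 CPM in fasted controls and 570 CPM in fasted LKO livers. Adipoq, Lep, Plin1 and Retn were near 0 in both groups, so the sum does not stand for adipocyte content. The lymphocyte list summed to between 5.56 and 8.34 CPM in controls and between 16.7 and 34.8 CPM in LKO livers, with Jchain called. Their part in the differences of the members was not tested, and in bulk tissue fewer cells of a type and less RNA per cell cannot be told apart.

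After refeeding, the same comparison called 5 of 10 members, all of them higher in LKO liver, where 3.63% of all genes were called in either direction and 2.28% were called higher. They were Elovl5, Elovl2, Fads2, Fads3 and Elovl1, and they were also the 5 members whose groups did not overlap, against 11.7% of all genes. The polyunsaturated branch thus had 3 of 4 members called, now with Fads2. Leaving out S44 and S49 gave 5 as well, with Fads1 in the place of Elovl1, where 463 of all genes were called.

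Refed controls S48 to S51 had Elovl5 at 216, 264, 276 and 294 CPM, and refed LKO livers S52 to S55 had it at 555, 578, 624 and 589 CPM. The LKO values had a coefficient of variation of 4.94%. On the log2 scale the difference was 1.16 (SE 0.12, edgeR adjusted p = 1.9e-04). Elovl2 held 383, 342, 407 and 299.6 CPM in refed controls and 649, 829, 759 and 943 CPM in refed LKO livers, with no overlap. Its log2 difference was 1.15 (SE 0.21, edgeR adjusted p = 0.0082). Both calls held in each fit that left out a library.

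Fads2 held 789, 1074, 754 and 866 CPM in refed controls and 1228, 1923, 1929 and 1784 CPM in refed LKO livers. The lowest LKO liver, S52, was above the highest control, S49. This came to a log2 difference of 0.98 (SE 0.19, edgeR adjusted p = 0.011). Fads1 held 236, 452, 201 and 224 CPM in refed controls and 365, 455, 482 and 471 CPM in refed LKO livers. Here 3 of the controls lay below every LKO liver, and S49 lay inside the LKO range. The log2 difference was 0.67 (SE 0.23) and was not called (edgeR adjusted p = 0.123). Without S49 it was 1.01 and was called (adjusted p = 0.0095).

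Fads3 held 8.56, 12.2, 8.20 and 9.44 CPM in refed controls and 14.8, 13.4, 19.8 and 25.6 CPM in refed LKO livers. The groups were apart by little more than 1 CPM. On the log2 scale the difference was 0.94 (SE 0.23, edgeR adjusted p = 0.034), and the call was lost without S48 (0.098), S50 (0.094), S51 (0.058), S54 (0.078) or S55 (0.114). Elovl1, which makes very long saturated chains for sphingolipids, held 27.3, 34.6, 29.1 and 40.4 CPM in refed controls and 49.6, 47.7, 47.2 and 47.9 CPM in refed LKO livers. The LKO values were almost equal (coefficient of variation 2.19%), and the controls spread more widely. This came to a log2 difference of 0.55 (SE 0.14, edgeR adjusted p = 0.044). That call was lost without any 1 of S48, S49, S50, S52, S53, S54 and S55 (adjusted p 0.065 to 0.131) and was kept without S51 (0.023).

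Of the remaining members of the saturated and monounsaturated branch, Elovl3 showed the largest difference in the refed state. Elovl3 is an elongase tied in liver to sex and to the clock. It held 245, 408, 59.9 and 105 CPM in refed controls and 153, 63.1, 39.6 and 35.0 CPM in refed LKO livers. The groups overlapped and the controls spread over a range of 6.81-fold. The log2 difference was -1.49 (SE 0.52, edgeR adjusted p = 0.125), and without S52 it was -2.16 and called (0.031). Scd1 held 1229, 2141, 143 and 1898 CPM in refed controls and 1624, 744, 596 and 194 CPM in refed LKO livers. Its 14.9-fold range within the controls, from S50 to S49, was wider than any difference between its group means. On the log2 scale the difference was -0.78 (SE 0.70, edgeR adjusted p = 0.607). For Elovl6 the difference was -0.23 (SE 0.33), or 0.24 without S49, and for Scd2 it was -0.27 (SE 0.22), or 0.04 without S49, none of them called.

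Marker lists also differed between the refed groups. Of 7 proliferation markers tested, 4 were called higher in LKO liver, and the summed list ran from 40.4 to 130.4 CPM there against 11.4 to 20.2 CPM in refed controls. The lymphocyte list summed to between 18.4 and 41.8 CPM in refed LKO livers and to between 4.30 and 6.96 CPM in refed controls. Of its 7 genes tested, 1 was called, and all 7 estimates were above 0. The adipocyte list summed to between 1598 and 2485 CPM in refed LKO livers and to between 3915 and 5438 CPM in refed controls. Most of that sum was again Car3, with means of 1957 CPM in refed LKO livers and 4659 CPM in refed controls. Of 4 adipocyte markers tested, 0 were called. Their part in the members' differences was not tested.

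**Figure D3:**
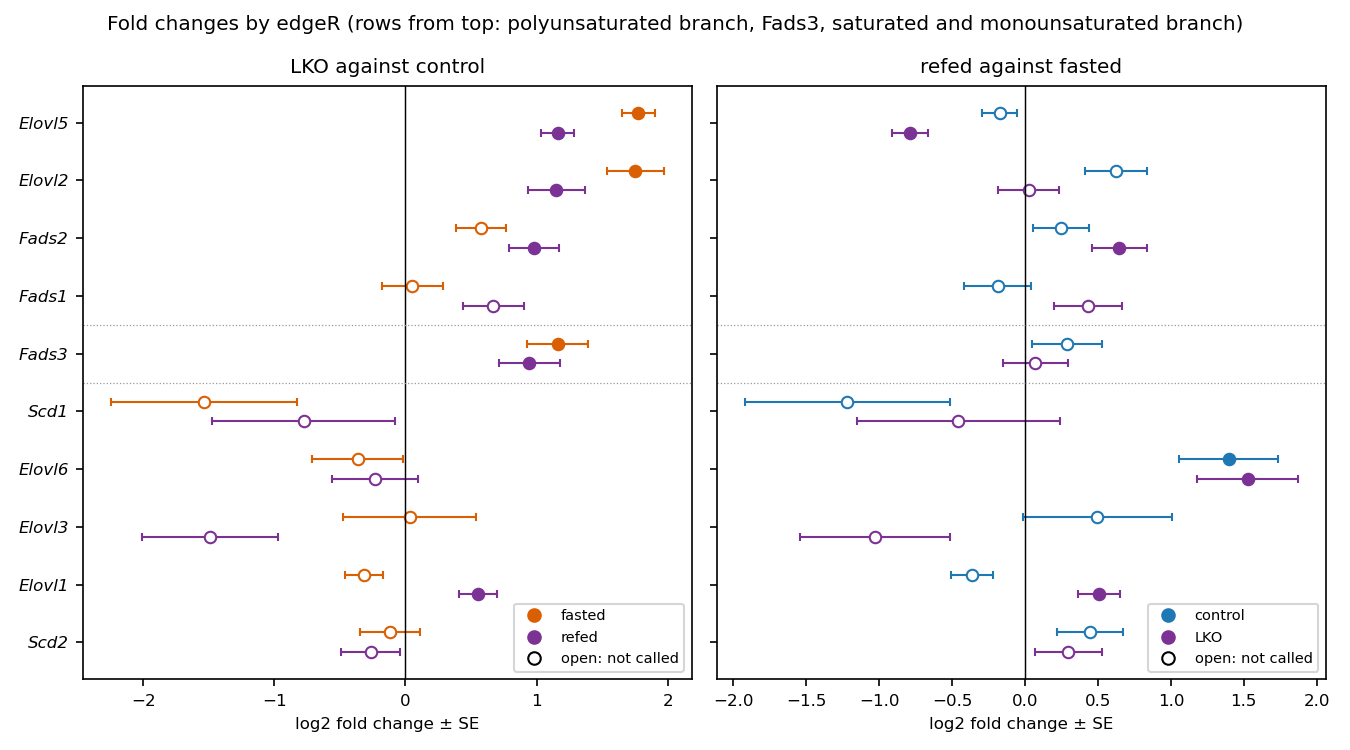
Log2 fold change with its standard error by edgeR for each member, LKO against control (left, by feeding state) and refed against fasted (right, by genotype), with filled points called at an adjusted p under 0.05. The polyunsaturated members and Fads3 lie at or right of 0 on the left panel, and Elovl6 has the largest rise on the right panel, at 1.40 in control and 1.53 in LKO liver.

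Whether the genotype difference itself changed with feeding was tested as an interaction. None of the 10 members passed with edgeR (0 called, where 0.538% of all genes were called). Without S44 and S49, 0 members and 49 of all genes were called. DESeq2 called 2 members, and 469 of all genes. By edgeR 2 members had an unadjusted p under 0.05, and the share of all genes at that threshold was not computed. The 2 were Elovl1 and Elovl5 in each case. The difference of Elovl1 was higher by 0.87 on the log2 scale after refeeding (SE 0.20, edgeR adjusted p = 0.058), with -0.31 fasted and 0.55 refed. It was called by DESeq2 (0.0054), under a low-count limit of 5 CPM on average (0.047), and without S47 (0.013), S49 (0.047) or S51 (0.043). The difference of Elovl5 was smaller after refeeding by 0.61 (interaction -0.61, SE 0.17, edgeR adjusted p = 0.095, DESeq2 0.026). For Elovl2 the interaction was -0.60 (SE 0.30, edgeR adjusted p = 0.330), and for Fads2 and Fads1 it was 0.40 (SE 0.27) and 0.62 (SE 0.33), with edgeR adjusted p of 0.484 and 0.361.

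Refeeding was compared next, first in control liver. Elovl6, the elongase that extends palmitate, was the 1 member of 10 called by edgeR, where 15.4% of all genes were called in either direction and 7.79% were called higher. It held 14.5, 17.9, 16.6 and 16.1 CPM in fasted controls and 44.02, 78.7, 24.2 and 24.4 CPM in refed controls. The refed controls fell into a higher pair, S48 and S49, and a lower pair, S50 and S51, and all lay above the fasted range. This came to a log2 difference of 1.40 (SE 0.34, edgeR adjusted p = 0.013), and without S49 it was 0.92 (0.042). Groups did not overlap for 2 members, Elovl6 and Elovl2, against 20.4% of all genes. Elovl2 was higher by 0.63 on the log2 scale in refed controls (SE 0.21) and was not called by edgeR (adjusted p = 0.057). It was called by DESeq2 (0.025), under a low-count limit of 5 CPM on average (0.048), with those 2 groups alone (0.018), and without S41 (0.041) or S51 (0.046).

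The rest of the polyunsaturated branch had small estimates on refeeding in control liver. Elovl5 (-0.17, SE 0.12), Fads1 (-0.19, SE 0.23) and Fads2 (0.25, SE 0.19) were not called. Without S44 and S49, Fads1 was at -0.52 and was called (edgeR adjusted p = 0.049). Elovl1 was at -0.36 (SE 0.14, edgeR adjusted p = 0.0998), and it was called without S51 (-0.47, 0.035). Scd1 was at -1.22 (SE 0.70, edgeR adjusted p = 0.264).

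In LKO liver refeeding called 4 of 10 members, 3 higher and 1 lower, where 18.1% of all genes were called in either direction, 9.28% higher and 8.78% lower. Elovl6, Fads2 and Elovl1 rose and Elovl5 fell. Groups did not overlap for Elovl5, Elovl1 and Elovl6, against 20.6% of all genes. Elovl6 went from 10.1, 8.32, 20.6 and 11.499 CPM in the fasted LKO livers to 30.0, 46.5, 26.6 and 42.6 CPM in the refed ones. The log2 difference was 1.53 (SE 0.35, edgeR adjusted p = 0.0058), next to 1.40 in control liver, and the interaction of 0.13 (SE 0.48, adjusted p = 0.917) was not called. Elovl5 fell by 0.79 on the log2 scale (SE 0.12, edgeR adjusted p = 4.5e-04), from 1013 ± 111 to 586 ± 29.0 CPM (SD, n = 4), and stayed above both control groups. Elovl2 did not follow it, with 782 ± 289.6 CPM fasted and 795 ± 124 CPM refed (SD, n = 4) and a log2 difference of 0.02 (SE 0.21).

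The remaining calls in LKO liver were less firm. Fads2 rose by 0.65 (SE 0.19, edgeR adjusted p = 0.027), and the call was lost in the fit of those 2 groups alone and without S44 (0.062), S45 (0.070), S47 (0.074), S53 (0.071), S54 (0.067) or S55 (0.063). Elovl1 rose by 0.50 (SE 0.14, edgeR adjusted p = 0.022), and its call was lost without S44 (0.072), S46 (0.066) or S52 (0.055). Without S44 and S49 the calls of both were lost, and Elovl6 and Elovl5 made up the 2 members called, where 2188 of all genes were called. Elovl3 was at -1.03 (SE 0.52, edgeR adjusted p = 0.188), and without S52 at -1.69 (0.037). Fasted and refed livers also differed in clock genes, with Nr1d1 called lower and Cry1 and Per2 called higher in both genotypes. Nr1d1 went from 152 ± 37.0 to 31.1 ± 12.6 CPM in controls (SD, n = 4). Hours of necropsy are not given in the labels, and time of day and feeding cannot be told apart.

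Set side by side, the branch medians had opposite signs for LKO against control in the fasted state, and in the refed state the sign for the saturated and monounsaturated branch rested on S49. The median log2 difference of the 4 polyunsaturated members, LKO against control, was 1.16 fasted and 1.06 refed, and all 4 estimates were above 0 in both states. In the 5 saturated and monounsaturated members the median was -0.31 fasted and -0.27 refed, with 4 of 5 estimates below 0 in both states. The median over all genes tested was 0.02 fasted and -0.01 refed. Without S49 the refed median of that branch was 0.04, with 3 estimates above 0 and 2 below, since those of Elovl6 and Scd2 turned positive while Scd1 and Elovl3 kept theirs. In the fasted state Fads1 fell below 0 without S40, S43 or S45 (lowest -0.0804), and Elovl3 without S40 or S44 (lowest -0.28). These are descriptions of lists of 4 and 5 genes, and no test of one branch against the other was made. For refeeding the medians were 0.04 in control and 0.23 in LKO liver for the polyunsaturated branch, and 0.44 and 0.30 for the other branch. In control liver both turned without S49, to -0.0241 and -0.0884, and the polyunsaturated one also without S43, to -0.0421.

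**Figure D4:**
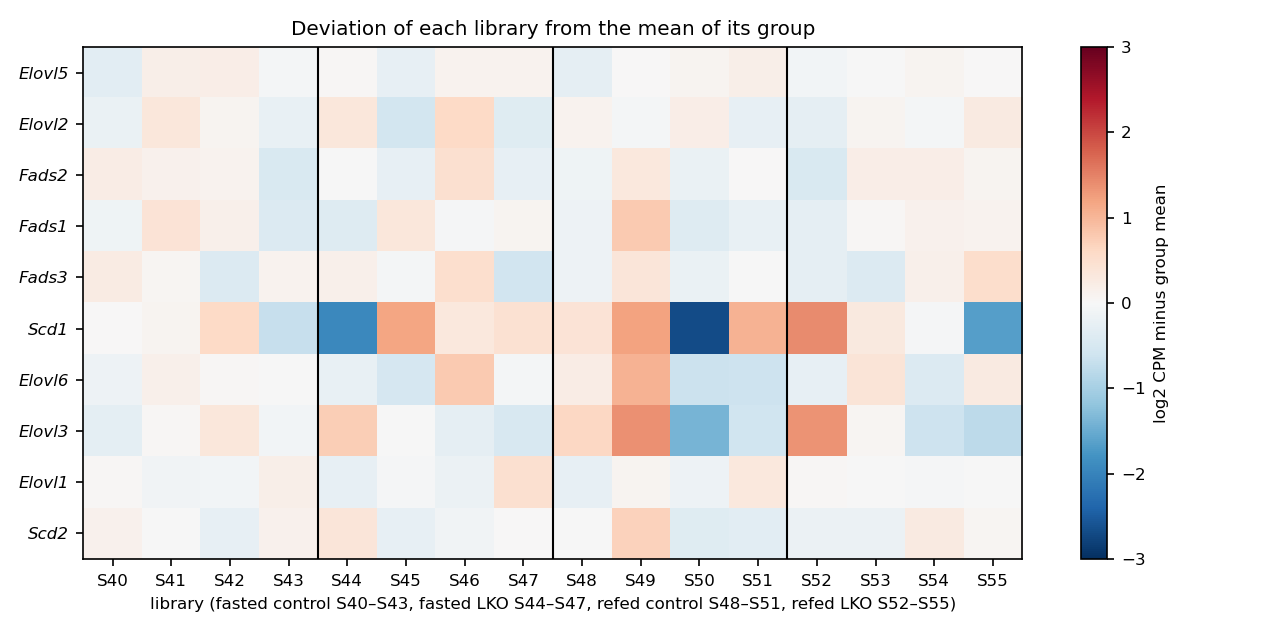
Deviation of each library from the mean of its group in log2 CPM, for each member (rows) over the 16 libraries (columns, groups divided by lines). Scd1 and Elovl3 carry the strongest colours, and in the refed control library S49 Scd1, Elovl3, Elovl6, Fads1 and Scd2 are all above their group mean.

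Spread within groups also divided the members. The coefficient of variation of Scd1 was 35.0% in fasted controls and between 63.8% and 76.3% in the other 3 groups, and that of Elovl3 reached 76.8% in refed controls. Elovl5 stayed between 4.94% and 16.0% in the 4 groups. Low Scd1 was found in 1 or more libraries of 3 groups, with 219.8 CPM in S44, 143 CPM in S50 and 194 CPM in S55. In S44 Elovl3 was the highest of its group, at 234 CPM, while in S50 and S55 Elovl3 was the lowest of its group. Over the 45 pairs of members, correlations of the deviations from group means across 16 libraries gave no pair past an adjusted p of 0.05 by permutation (100000 permutations, two-sided). The strongest was Elovl1 with Elovl2, at r = -0.67 (permutation p = 0.020, adjusted 0.556) and rho = -0.74 (permutation p = 0.0034, adjusted 0.153), and r was -0.81 without the 2 libraries with the most extreme Elovl2 values, S45 and S46.

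Partners of the elongases in the same cycle moved in part. Of 7 tested genes among the elongation cycle partners and further elongases, 2 rose and 1 fell in fasted LKO liver, and 1 rose in the refed state. Hsd17b12, the ketoacyl-CoA reductase that acts after the condensation, rose in both states, by 0.66 (SE 0.10) fasted and by 0.44 (SE 0.10) refed (edgeR adjusted p = 8.3e-04 and 0.025). The refed call was lost in the fit of those 2 groups alone (0.0504) and without S48, S49, S50, S53, S54 or S55 (0.058 to 0.073). Its level went from 152 ± 11.4 to 239.7 ± 23.4 CPM between the fasted groups (SD, n = 4). The dehydratase Hacd3 rose by 0.78 (SE 0.13, edgeR adjusted p = 0.0014) in the fasted state, while its relative Hacd2 fell by 0.32 (SE 0.07, adjusted p = 0.012). Tecr, the reductase that ends the cycle, was at -0.18 (SE 0.13) fasted and 0.25 (SE 0.13) refed and was not called. Of 6 tested further desaturases and electron donors of desaturases, 1 was called in the fasted state (3 without S45), Cyb5r3, the cytochrome b5 reductase, which fell by 0.76 (SE 0.14, edgeR adjusted p = 0.0032).

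Genes that use or break down acyl chains, polyunsaturated ones among them, were also followed. Of 13 tested, 3 rose and 1 fell in fasted LKO liver. The acyl-CoA synthetases Acsl5 (0.83, SE 0.10) and Acsl1 (0.73, SE 0.17) and the peroxisomal enzyme Hsd17b4 (0.51, SE 0.10), which acts in the shortening of very long polyunsaturated chains, were higher, with edgeR adjusted p between 2.4e-04 and 0.013. Agpat2, an acyltransferase of glycerolipid synthesis, fell by 0.55 (SE 0.14, edgeR adjusted p = 0.017), a call lost without S42, S43, S44 or S46 (0.052 to 0.059). In the refed state 1 of 13 was called, Hsd17b4, at 0.41 (SE 0.10, adjusted p = 0.028), and not without S48, S49, S50, S53, S54 or S55 (0.062 to 0.091). DESeq2 called 3 of the 13 higher there. Lpcat3, which puts polyunsaturated chains into phospholipids, fell on refeeding, by 0.55 (SE 0.15, edgeR adjusted p = 0.019) in control and by 1.12 (SE 0.15, adjusted p = 1.2e-04) in LKO liver. The control call was lost without S40, S48, S49 or S50 (0.054 to 0.069).

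Known regulators and the targets they share with the members were followed as well. In fasted LKO liver Srebf1, which encodes SREBP1, fell by 2.25 (SE 0.28, edgeR adjusted p = 2.4e-04), from 181 ± 27.2 to 38.0 ± 5.31 CPM (SD, n = 4), and Mlxipl, which encodes ChREBP, fell by 0.55 (SE 0.08, adjusted p = 7.7e-04). Of 11 tested lipogenic targets, 3 fell in that comparison, with a median of -0.35, and 6 fell in the fit of those 2 groups alone. Elovl5 and Elovl2 were 3.4-fold higher in those livers. Of 16 PPARA targets, 12 rose, with a median of 0.71, led by the peroxisomal Ehhadh at 2.97 (SE 0.41, edgeR adjusted p = 3.9e-04). In the refed state 5 of 16 PPARA targets rose (median 0.40, 8 with DESeq2) and 1 of 11 lipogenic targets fell (median -0.04), which became 0 in the fit of those 2 groups alone and without S48, S49, S52, S53, S54 or S55. Ppara itself was at 0.45 (SE 0.20) fasted and -0.04 (SE 0.20) refed and was not called by edgeR (adjusted p = 0.161 and 0.945). On refeeding, 6 of 11 lipogenic targets rose in control and 7 of 11 in LKO liver, and 8 of 16 PPARA targets fell in LKO liver. The 6 became 3 without S40 or S49, and the 8 became 5 without S46 and 4 without S52. Among the members in LKO liver, Elovl6, Fads2 and Elovl1 rose, Elovl5 fell and Elovl2 was at 0.02. The part of these regulators in the differences of the members was not tested. The lists were drawn up with earlier results of these data known and overlap in the libraries they rest on.

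**Figure D5:**
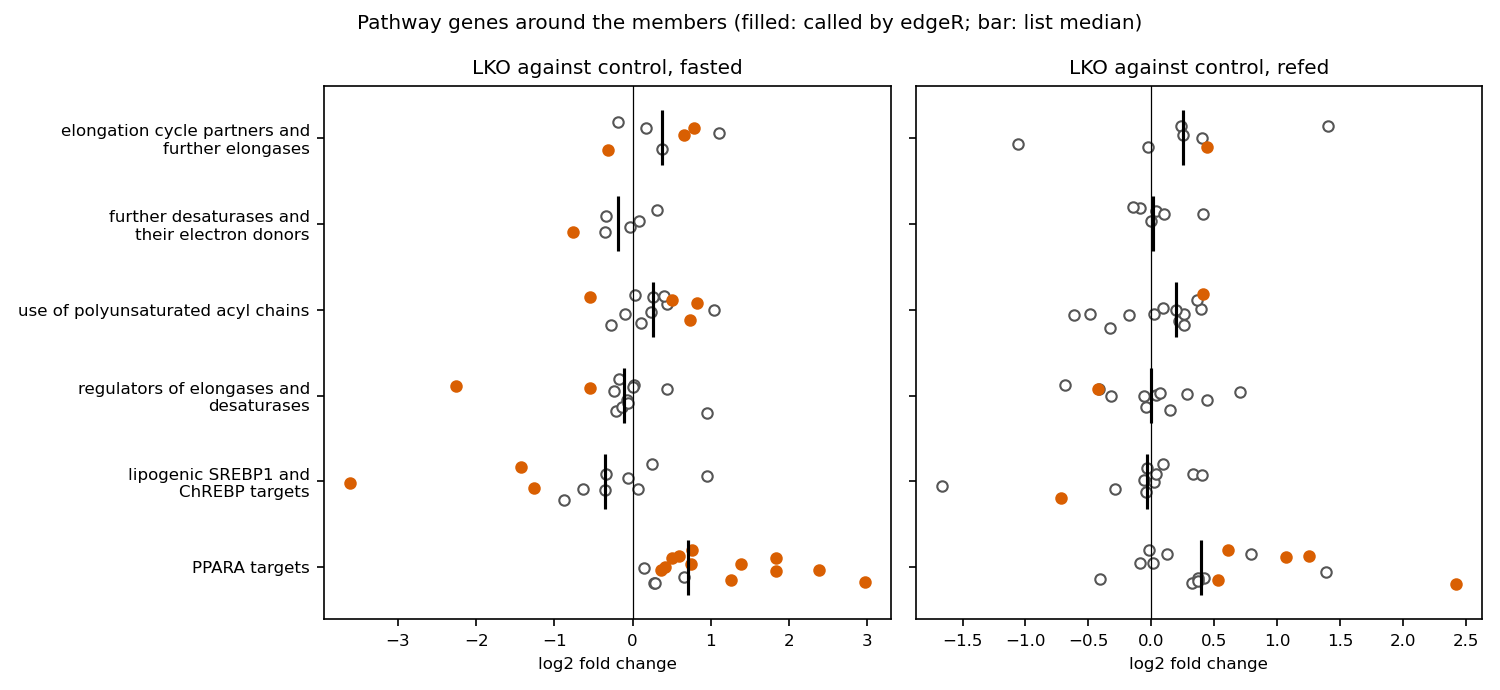
Log2 fold change of every tested gene of 6 pathway lists, LKO against control, in the fasted (left) and refed (right) state, with filled points called by edgeR and a bar at the list median. In the fasted panel all 16 PPARA targets lie right of 0 with a median of 0.71, and the lipogenic targets have a median of -0.35.

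The genes whose pattern was most like those of the leading members were ranked by Pearson r of log2 CPM over the 16 libraries, among 8893 protein-coding genes. For Elovl5 they were Acadm (r = 0.96), Pctp (0.95), Lamb3 (0.95), Tmed4 (0.95) and Hsd17b4 (0.94). Acadm is the medium-chain acyl-CoA dehydrogenase of mitochondrial oxidation, and Hsd17b4 was named above among the peroxisomal enzymes. For Elovl6 they were Acaca (0.94), Acly (0.93), Fasn (0.91), Tkfc (0.91) and Dnajc1 (0.91). The leading 3 act on the route to the malonyl-CoA and palmitate that Elovl6 uses. The points share libraries and group differences, so these r values describe the pattern and carry no test, and the genes share the group differences of Elovl5 or Elovl6 by the way they were picked.

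The authors' deposited tables cover the same 4 contrasts for the 10 members. Over 40 pairs of member and contrast, the authors' log2 fold changes and those fitted here had the same sign in 40 and differed by at most 0.009123. The authors' deposited tables call 17 at an adjusted p under 0.05, against 13 here, and all 13 are among the 17. The further 4 in the authors' deposited tables are Scd1 and Fads2 in fasted livers (adjusted p = 0.033 and 0.037), Elovl2 on refeeding in control liver (7.3e-04) and Fads1 on refeeding in LKO liver (0.042).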

How the data were processed

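Poly-A RNA of 16 liver samples was sequenced from random-hexamer dUTP libraries, per the labels' protocols. HISAT2 2.0.5 and the build mm39 are named in the submitters' processing notes; the counting tool and its use of strand are not given in the sources used here. The authors deposited 4 tables, one for each pair of groups compared, whose raw counts of reads per gene are whole. The deposited tables also hold the authors' log2 fold changes, printed here with their sign turned to match the contrasts named. The authors' adjusted p-values are deposited with no tool named. Gene lengths in bases are the deposited ones. Another 64 columns with values by library stayed unused.

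Joining the tables by gene identifier gave 25803 genes. No library's count differed from table to table (0 differences). Where a gene was in neither table of a library it was given 0 there (3148 genes, 0 members). Library groups come from the table headings, and the count columns carry no replicate number. In R 4.3.3, edgeR 4.0.16 fitted the 14488 genes passing filterByExpr with TMM scaling and the 4 groups as one factor over all 16 libraries. The standard error is the log2 fold change divided by the square root of F. CPM use TMM-scaled totals. Log2 CPM for the correlations used a prior count of 2. The procedure was tested on simulated data. Alternatives were DESeq2 1.42.0, RLE and upper quartile scaling, other filters, only the 2 groups compared, and each library left out in turn. Leaving out both S44 and S49 was added after seeing the data.

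Members, branches and the pathway and marker lists were chosen with earlier results of these data known. The genes named are Cpt1a, the members, genes of the lists, and the 5 genes most like Elovl5 and Elovl6. One gene of the pathway lists is not reported here and was left out of its list's counts.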

Additional observations from a re-analysis of the deposited data

Results flagged for a closer look

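One of the 40 combinations of member and group had a library far from the other 3. Fads1 in the refed controls was highest in S49, at 452 CPM, and the gap to the next library was 0.858 of the whole range, above Dixon's 95% critical value for 4 samples. Chance flags about 1 in 20 groups. The same library was also the highest refed control for Scd1, Elovl3, Elovl6, Fads2, Fads3 and Scd2.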

How the results depend on the processing

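No paired analysis was possible because the count columns carry no replicate numbers. Leaving out 1 library in turn gave 3 to 5 members called in fasted LKO against control (1048 to 1985 of all genes, lowest without S44), 3 to 5 refed (197 to 517), 1 to 3 for refeeding in control (1220 to 2483), 2 to 4 for refeeding in LKO (1795 to 2448) and 0 to 1 for the interaction (8 to 282). DESeq2 called 904 of all genes refed, 2 members for refeeding in control, and 2 members and 469 of all genes for the interaction. The filter at a mean of 5 CPM called 2 members for refeeding in control, and 1 member and 195 of all genes for the interaction. With only the 2 groups compared, 2 members were called for refeeding in control. Without both S44 and S49, 1149 of all genes were called fasted, 2 members for refeeding in control, 2 for refeeding in LKO, and 49 of all genes for the interaction. The causes were not tested.

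Estimates of members that changed sign were not called under any setting that turned them. Without S44 and S49 they were Elovl3 fasted (-0.28), Elovl6 refed (0.24), Scd2 refed (0.0397), Elovl3 on refeeding in control (-0.0884) and Scd2 in the interaction (0.30). Over single libraries left out, fasted differences ran from -0.0804 to 0.199 for Fads1 and from -0.28 to 0.17 for Elovl3, and refed ones from -0.43 to 0.24 for Elovl6 and from -0.395 to 0.0398 for Scd2. Refeeding estimates ran from -0.0884 to 0.802 for Elovl3 in control, and in LKO from -0.13 to 0.24 for Elovl2 and from -0.13 to 0.25 for Fads3. Interactions ran from -0.0683 to 0.606 for Elovl6 and from -0.28 to 0.16 for Scd2. The refed difference of Ppara ran from -0.19 to 0.0823. Branch medians for refeeding in control ran from -0.0421 to 0.126 (polyunsaturated) and from -0.0884 to 0.574 (the other branch), and without both S44 and S49 were -0.0240 and -0.0884. The refed median of the other branch, LKO against control, ran from -0.43 to 0.0398. Medians of branches, and the other named genes and lists, under these fits were added after seeing the data. Of the single estimates of members under an alternative, 745 kept direction and side of the threshold, 25 lost the call, 22 gained it and 23 changed sign. Depth limits Scd2 and Fads3 most.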
